A study of Gallus gallus with 6 samples.

Results

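The genes of haem synthesis, haem breakdown and iron handling were followed in the chicken B cell line DT40, which keeps diversifying its immunoglobulin genes in culture. They comprised 9 genes chosen by symbol from the 17108 genes of the deposited tables. ALAS1, UROD, CPOX and FECH make haem. HMOX1, HMOX2 and BLVRA break it down. TFRC takes up iron and FTH1 stores it. Each of the 9 symbols matched exactly 1 row, and all 9 rows passed the filter on low counts that left 9159 genes for testing. RNA from wild type cells (named Clone 18) was compared with RNA from Bach2-/- cells (Bach2KO), with 3 libraries from independent cultures of each genotype. The same RPMI-based medium, with chicken and fetal calf serum and β-mercaptoethanol, served both genotypes. The labels do not state how the knockout was made or whether it came from more than 1 clone, and the knockout columns all carry the name Bach2ko1. A difference between the genotypes thus cannot be told apart from a difference between single clones, and p-values measure the spread between cultures.

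Haem is built in a chain of enzymes that starts and ends in the mitochondrion. ALAS1 makes the first intermediate and sets the pace in most cells, and ferrochelatase (FECH) inserts iron at the end. Haem oxygenase opens the ring and releases iron, carbon monoxide and biliverdin, which biliverdin reductase turns into bilirubin. The inducible haem oxygenase gene HMOX1 is a well-known target of BACH1, a relative of Bach2: in mammals, BACH proteins repress genes with Maf recognition elements, and haem binds BACH proteins and weakens that repression. Iron regulatory proteins stabilise TFRC transcripts and hold back ferritin translation when iron is scarce.

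The libraries held between 8999010 and 20647281 counts, of which the 9 genes took 0.204% to 0.239%. Their counts ran from 96 for BLVRA in wild type replicate 3 to 25948 for FTH1 in wild type replicate 1. The targeted gene BACH2 averaged 6.35 ± 0.251 CPM (counts scaled by TMM-adjusted library totals) in wild type, against 2.85 ± 0.457 CPM for the knockout (SD, n = 3 each), so reads on the gene remained, with a log2 fold change of -1.16 ± 0.20 (SE, edgeR adjusted p = 0.00144). All 12 listed B cell markers with a row were detected. Of all tested genes, 18.0% were called lower and 12.7% higher in the knockout. Of the 12 markers, 9 were called lower and 1 higher (median log2 fold change -0.47), with CD74 at -1.24, BCL6 at -0.98 and PAX5 at -0.42. Their sum was 3754 to 3974 CPM in the wild type libraries and 3531 to 3705 CPM in the knockout, and this sum includes the rise of IGJ, the immunoglobulin joining chain, from 529.8 ± 67.9 to 1200.4 ± 105 CPM. The part of these shifts in the results below was not tested. Of 11 rows for erythroid markers, the cells best known for haem synthesis, 8 were at 0 in every library, including the globin genes HBAA and HBAD and the anion exchanger SLC4A1. Their sum did not exceed 0.0978 CPM in a wild type library and 0.459 CPM in a knockout library. The erythroid markers GATA1, KLF1, EPOR and ALAS2 had no row under these symbols. SDHC, a subunit gene of succinate dehydrogenase named after its values were seen, was also at 0 in every library. Whether a row at 0 means absent RNA was not tested. Macrophage and granulocyte markers summed to 133 to 138 CPM in the wild type libraries and 117 to 136 CPM in the knockout, nearly all of it from SPI1, which B cells also express. Markers MARCO, CEBPA and CTSG were at 0. T cell markers summed to 145 to 181 CPM in the wild type libraries and 87.9 to 110.4 CPM in the knockout, led by CD3D, while CD4, CD28 and GATA3 were at 0. Of 11 T cell rows, 7 fell below the filter on low counts. The 4 tested rows were all called lower (median log2 fold change -2.68), beside 18.0% of all tested genes. Their log2 fold changes included -4.33 for CD3E, -4.29 for CD8A and -0.49 for CD3D. In the knockout libraries, CD3E had 5, 19 and 20 counts and CD8A had 2, 4 and 7. Both passed the filter only through the wild type libraries. The share and the median thus rest in part on genes selected by their wild type level. Knockout replicate 1 stood apart: chi-square per degree of freedom between its counts and those of knockout replicates 2 and 3 was 20.6 and 29.4, against 6.67 between those 2 replicates. In bulk RNA, fewer cells that express a gene and less RNA per cell cannot be told apart.

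In the knockout, 3 of the 9 genes were higher, 1 was lower and 5 did not pass edgeR's two-sided quasi-likelihood test at an adjusted p under 0.05. TFRC, HMOX1 and BLVRA rose 1.66-fold, 1.47-fold and 1.35-fold, and FTH1 fell to 0.818 of its wild type level. The second haem oxygenase gene and the 4 genes of synthesis did not pass. Among all 9159 tested genes, 12.7% were called higher and 18.0% lower, 30.7% in all, so that 4 calls among 9 genes (44.4%) are a share of few genes beside a high background. The libraries of the genotypes did not overlap for the same 4 genes, against 46.2% of all tested genes. The median log2 fold change was 0.16 over the 9 genes and -0.0014 over all tested genes. In absolute log2 fold change, TFRC exceeded 88.4% of the tested genes, HMOX1 82.7%, BLVRA 75.8% and FTH1 60.8%. In the gene table of a newer assembly, none of the 9 lay on chromosome 3, whose 688 tested genes had a median log2 fold change of -0.45.

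**Figure D1:**
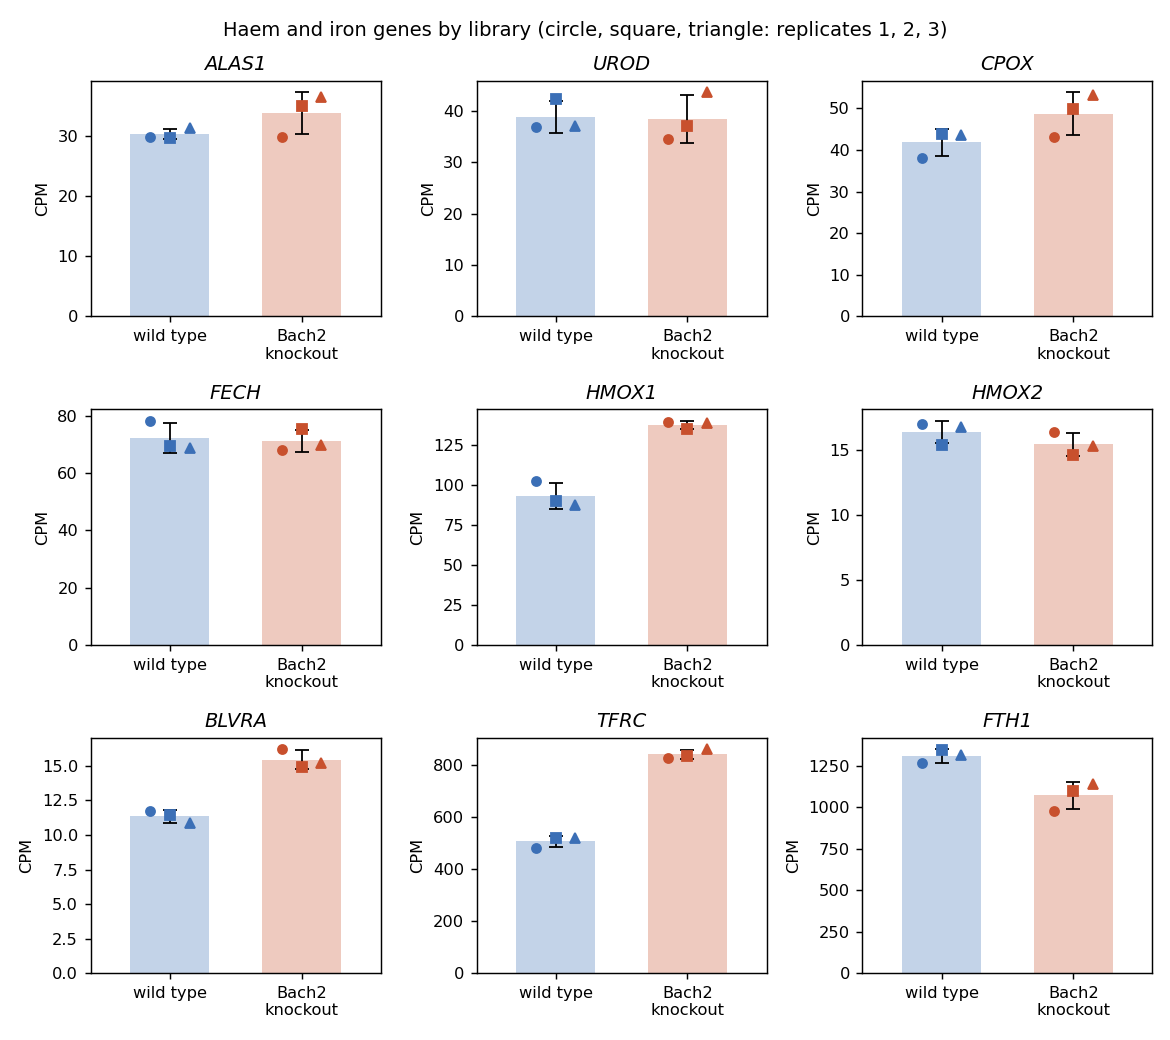
CPM of each gene (vertical axes from 0) in 3 wild type libraries (blue) and 3 Bach2 knockout libraries (red), with bars for the mean and whiskers for 1 SD; circles, squares and triangles are replicates 1, 2 and 3. HMOX1, BLVRA and TFRC have all knockout libraries above all wild type libraries, FTH1 has them below, and the other genes overlap.

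Of the haem-degrading enzymes, HMOX1 (ENSGALG00000012550) differed most. It had 103, 90.0 and 87.4 CPM in wild type replicates 1, 2 and 3. In the knockout it had 139.8, 135 and 139 CPM. Every knockout library was above every wild type library, and the knockout libraries lay closer together, with a coefficient of variation of 1.80% against 8.83% in wild type. The means were 93.4 ± 8.25 and 138 ± 2.48 CPM (SD, n = 3 each). The fitted log2 fold change stood at 0.56 ± 0.077 (SE, edgeR adjusted p = 0.000374), and its 95% confidence interval ran from 1.31-fold to 1.66-fold.

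HMOX2 (ENSGALG00000007638), the constitutive haem oxygenase, had 17.0, 15.4 and 16.8 CPM in the wild type libraries and 16.4, 14.7 and 15.3 CPM in the knockout. These values overlapped. The difference lay within the spread between replicates (log2 fold change -0.088 ± 0.11, SE, edgeR adjusted p = 0.589), with a 95% confidence interval of 0.792-fold to 1.12-fold. On the per-length scale (RPKM, counts scaled by gene length and a library factor), HMOX1 stood at 3.75, 3.62 and 3.22 times HMOX2 in the wild type libraries. That ratio was 5.27, 5.71 and 5.62 in the knockout libraries, with no overlap between the genotypes. This ratio and those below were chosen after the values were seen and were not tested.

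BLVRA (ENSGALG00000012352), which acts on the product of haem oxygenase, had the fewest counts of the 9 genes in every wild type library. It had 11.7, 11.5 and 10.8 CPM in the wild type libraries and 16.2, 14.9 and 15.2 CPM in the knockout, again with no overlap. The means were 11.3 ± 0.458 and 15.4 ± 0.671 CPM (SD, n = 3 each), and the log2 fold change stood at 0.44 ± 0.12 (SE, edgeR adjusted p = 0.0165). The call was lost without wild type replicate 2 (0.45, adjusted p = 0.0577) or 3 (0.41, adjusted p = 0.0630). The RPKM ratio of HMOX1 to BLVRA spanned 8.34 to 9.31 in wild type libraries and 9.16 to 9.70 in knockout libraries, so that it overlapped.

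Of the iron genes, TFRC (ENSGALG00000007485), the receptor that brings transferrin-bound iron into the cell, had the largest fold change of the 9 genes. It had 481, 517 and 519 CPM in the wild type libraries and 826, 834 and 859 CPM in the knockout. The genotypes were far apart relative to their spread, with means of 506 ± 21.4 and 839.7 ± 17.6 CPM (SD, n = 3 each). The fitted log2 fold change stood at 0.73 ± 0.064 (SE, edgeR adjusted p = 1.91e-05), and its 95% confidence interval ran from 1.51-fold to 1.83-fold.

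FTH1 (ENSGALG00000007220), the ferritin heavy chain that oxidises and stores iron, was lower in the knockout. It had 1268, 1349 and 1315 CPM in the wild type libraries and 979, 1101 and 1139 CPM in the knockout, where replicate 1 was lowest. The means were 1311 ± 40.3 and 1073 ± 83.6 CPM (SD, n = 3 each). The fitted log2 fold change stood at -0.29 ± 0.073 (SE, edgeR adjusted p = 0.0127), with a 95% confidence interval of 0.732-fold to 0.915-fold. The call was lost without wild type replicate 2 (-0.27, adjusted p = 0.0658) or 3 (-0.28, adjusted p = 0.0574), and without knockout replicate 1 the value was -0.22. The RPKM ratio of TFRC to FTH1 was 0.0971, 0.0982 and 0.101 in the wild type libraries. In the knockout libraries it was 0.216, 0.194 and 0.193, a 2.03-fold higher ratio with no overlap between the genotypes. That lack of overlap adds nothing to the values of each gene. It follows from TFRC being above and FTH1 below every wild type library in every knockout library.

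**Figure D2:**
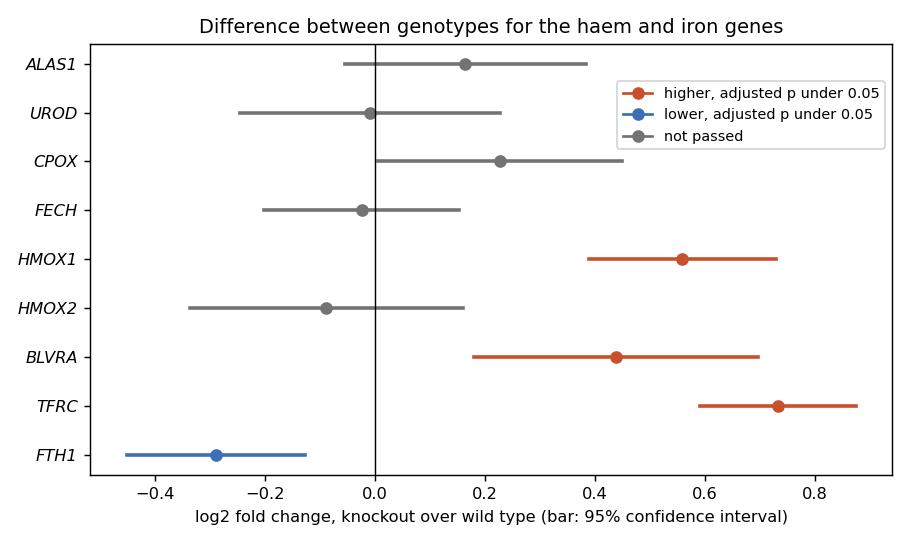
Log2 fold change of knockout over wild type (horizontal axis) for the 9 genes, with bars for the 95% confidence interval of edgeR's fit on 3 libraries per genotype. The bars of TFRC, HMOX1 and BLVRA lie above 0 and that of FTH1 below it. The bar of CPOX also lies above 0, as the intervals are not adjusted for the number of genes. HMOX2 and the 4 synthesis genes, CPOX among them, did not pass the adjusted test.

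Of the synthesis genes in pathway order, ALAS1 (ENSGALG00000003948) had 29.9, 29.7 and 31.3 CPM in wild type. In the knockout it had 29.9, 35.1 and 36.5 CPM. Knockout replicate 1 lay within the wild type range and the other 2 knockout libraries above it. The fitted log2 fold change stood at 0.16 ± 0.099 (SE, edgeR adjusted p = 0.236; 95% confidence interval 0.963-fold to 1.30-fold). Without knockout replicate 1 it was 0.25 with an adjusted p of 0.0339.

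UROD (ENSGALG00000010219), which decarboxylates uroporphyrinogen, had 36.8, 42.4 and 37.0 CPM in the wild type libraries and 34.6, 37.1 and 43.6 CPM in the knockout. The ranges lay over each other, and the log2 fold change stood at -0.0084 ± 0.11 (SE, edgeR adjusted p = 0.962; 95% confidence interval 0.844-fold to 1.17-fold). Its sign depended on the library left out and on the scaling. CPOX (ENSGALG00000015240), the oxidase of the next step, had 38.1, 43.7 and 43.7 CPM in the wild type libraries and 43.1, 49.8 and 53.3 CPM in the knockout. As for ALAS1, knockout replicate 1 fell within the wild type range and the other 2 knockout libraries above it. The fitted log2 fold change stood at 0.23 ± 0.10 (SE, edgeR adjusted p = 0.111; unadjusted p = 0.0453). Its 95% confidence interval, not adjusted for the number of genes, ran from 1.004-fold to 1.37-fold. Without knockout replicate 1 the log2 fold change was 0.31 with an adjusted p of 0.00900.

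FECH (ENSGALG00000003066), which closes the pathway, had 78.3, 69.4 and 68.9 CPM in the wild type libraries and 68.1, 75.3 and 69.9 CPM in the knockout. The genotypes overlapped, with a log2 fold change of -0.024 ± 0.080 (SE, edgeR adjusted p = 0.851; 95% confidence interval 0.870-fold to 1.11-fold). Its sign also changed with the library left out and the scaling. Knockout replicate 1 was the lowest knockout library for 6 of the 9 genes (FTH1, TFRC and the 4 synthesis genes) and the highest for the other 3, which are the haem-degrading enzymes. Some of these margins were narrow. HMOX1 had 139.8 CPM in knockout replicate 1 and 138.8 CPM in replicate 3, and TFRC had 826 CPM in replicate 1 and 834 CPM in replicate 2. The same ranks were not counted over all tested genes, so this split is not a result about the 9 genes. What sets that library apart was not tested. Within a genotype the coefficient of variation of the 9 genes ran from 2.83% to 8.83% in wild type libraries and from 1.80% to 12.1% in the knockout, where UROD, CPOX and ALAS1 varied most.

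On the per-length scale the levels of the 9 genes spanned more than the differences between genotypes. In wild type, the order of mean RPKM was FTH1 (1506 ± 39.4), TFRC (149 ± 5.53), HMOX1 (59.5 ± 5.59), FECH (48.3 ± 3.80), UROD (31.4 ± 2.47), HMOX2 (16.9 ± 0.951), ALAS1 (14.4 ± 0.375), CPOX (8.20 ± 0.597) and BLVRA (6.80 ± 0.304; SD, n = 3). No neighbours in this order overlapped in their RPKM over the wild type libraries. The mean RPKM of FTH1 exceeded that of 99.3% of the tested genes, and that of BLVRA exceeded 32.1%. In the knockout the order was the same down to UROD. Below it, the RPKM of ALAS1 (16.4 ± 1.67) and HMOX2 (16.3 ± 0.970) overlapped, as did that of CPOX (9.77 ± 1.03) and BLVRA (9.47 ± 0.424; SD, n = 3). FTH1 stood at 10.1 times TFRC in mean RPKM in wild type and at 4.99 times in the knockout. HMOX1 stood at 1.23 times FECH in wild type and at 1.85 times in the knockout.

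**Figure D3:**
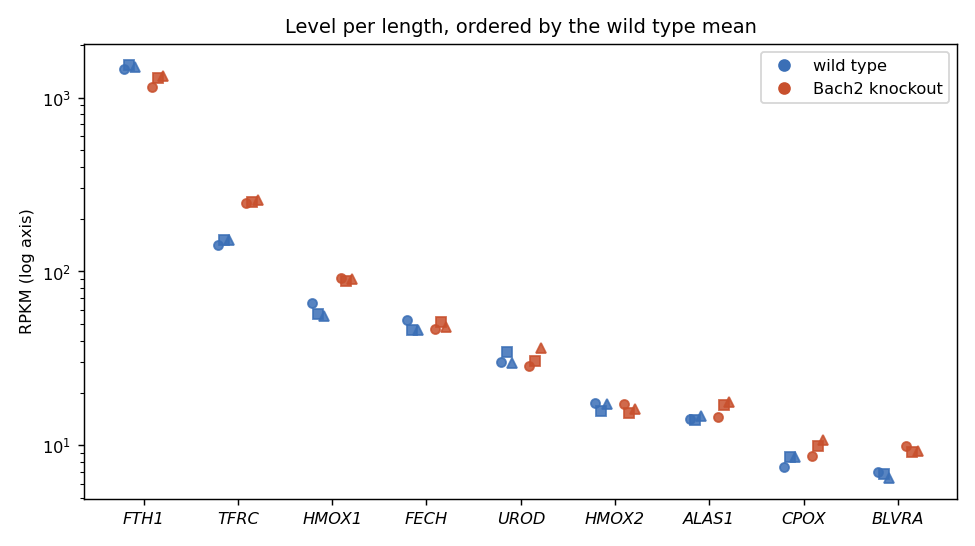
RPKM (log axis) of each gene in the 3 wild type (blue) and 3 Bach2 knockout (red) libraries, ordered by the wild type mean; circles, squares and triangles are replicates 1, 2 and 3. Levels run from FTH1 above 1000 RPKM to BLVRA below 10 RPKM.

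Among the other tested genes with a proper symbol, those whose profile lay closest to that of HMOX1 were WDR66, TTC12, SNRK, ALG2 and BET1. Likeness was the root mean square difference of log2 CPM, centred on the wild type mean, over the 6 libraries, and it was 0.048, 0.049, 0.050, 0.056 and 0.059. The log2 fold changes of these genes ran from 0.53 (SNRK) to 0.57 (ALG2), beside 0.56 for HMOX1. They were chosen for this likeness among all tested genes, and no test was made.

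Around the 9 genes, 48 other tested rows of 5 lists on haem and iron are reported. Of these rows, 4 rose (8.33%) and 9 fell (18.8%), and the median log2 fold change was -0.058. ISCA1 had a row of its own and another shared with ZCCHC6. These shares stand beside a background of 12.7% and 18.0%. The lists were written by pathway role with earlier results of these data known.

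Of 6 other tested genes of haem synthesis and its mitochondrial transport that are reported here, 2 fell and 4 did not pass, with a median log2 fold change of -0.17 (-0.062 without knockout replicate 1). For comparison, 18.0% of all tested genes were called lower and 12.7% higher. ABCB6, a porphyrin transporter, fell from 19.8 ± 3.41 to 9.66 ± 1.48 CPM (-1.04 ± 0.16, edgeR adjusted p = 0.000750). ABCB10, a mitochondrial transporter needed for haem synthesis in mouse red cells, fell by 0.28 ± 0.078 on the log2 scale (edgeR adjusted p = 0.0205), but it lies on chromosome 3 and stood at 0.17 above the median of that chromosome. ABCB10 lost its call without wild type replicate 2 or 3 or knockout replicate 2 or 3 (adjusted p 0.0578 to 0.101). ALAD, PPOX, TMEM14C and the erythroid ALAS2 had no row under these symbols and were not analysed here.

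Of 5 other tested genes of haem breakdown and transport, 1 rose, 1 fell and 3 did not pass (median -0.077). The shares over all tested genes were 12.7% higher and 18.0% lower. PGRMC1, a haem-binding membrane protein (0.24 ± 0.086, edgeR adjusted p = 0.0561), named after its values were seen, was called higher in 9 of 16 alternatives, DESeq2 and both limma fits among them, with 2 genes of the list called higher there. Its relative PGRMC2 rose from 63.5 ± 3.48 to 87.5 ± 2.54 CPM (0.46 ± 0.073, edgeR adjusted p = 0.000872). SLC46A1, a transporter of folate that also carries haem, had 3.67, 3.87 and 3.61 CPM in the wild type libraries and 0.688, 2.16 and 2.21 CPM in the knockout. Its log2 fold change in edgeR was -1.09 ± 0.34 (adjusted p = 0.0336), and the call was lost without wild type replicate 1, 2 or 3 (adjusted p = 0.106, 0.101 and 0.0819). The median of this list was 0.10 without wild type replicate 2 and -0.15 without wild type replicate 3.

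Of 9 other tested genes of iron uptake, storage and export, 4 fell and 5 did not pass in edgeR. These are few genes, and edgeR called 18.0% of all tested genes lower and 12.7% higher. DESeq2 called 3 genes of the list lower and each limma fit called 2 lower. Called higher were 0 in edgeR, DESeq2 or limma, with 1 higher at an unadjusted edgeR p under 0.05 (SLC40A1, the iron exporter ferroportin, named after its values were seen). SLC40A1 was called higher without knockout replicate 1 (0.84, edgeR adjusted p = 0.0219). The median was -0.11, and -0.17 to -0.069 with 1 library left out, the lowest without knockout replicate 3 and the highest without wild type replicate 1. SLC39A8, a zinc, manganese and iron importer, had 10.8, 10.7 and 8.47 CPM in wild type. It had 0.765, 0.498 and 0.462 CPM in the knockout, a log2 fold change of -4.16 ± 0.25 (edgeR adjusted p = 1.63e-06). SLC39A8 had 10, 9 and 9 counts in the knockout libraries. It passed the filter on low counts only through the wild type libraries, so its call rests in part on that selection. TF, the gene of transferrin, fell from 6.03 ± 0.953 to 2.80 ± 0.524 CPM (-1.12 ± 0.23, edgeR adjusted p = 0.00366). The ferroxidase genes HEPH and CP fell by 0.45 ± 0.13 and 0.32 ± 0.11 on the log2 scale (edgeR adjusted p = 0.0215 and 0.0480). HEPH lost its call without wild type replicate 1 or 3 or knockout replicate 2 or 3 (adjusted p 0.0511 to 0.111). It also lost its call in both limma fits (limma adjusted p = 0.0731 and 0.0815). CP lost its call without wild type replicate 1, 2 or 3 or knockout replicate 2 (adjusted p 0.0838 to 0.169). It lost it in 12 of 16 alternatives in all, DESeq2 and both limma fits among them. With all 6 libraries, TFRC was the 1 gene called higher by edgeR among the 11 tested genes of this list, and FTH1 was 1 of 5 called lower.

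Of 5 tested genes of iron and oxygen sensing, 0 were called in either direction by edgeR, DESeq2 or limma, and 1 (VHL, lower) had an unadjusted edgeR p under 0.05. These are few genes, and edgeR called 30.7% of all tested genes in either direction. Without knockout replicate 3, VHL was called lower (-0.24, edgeR adjusted p = 0.0490). The median was 0.034, and -0.019 without knockout replicate 1. The iron regulatory protein genes, named after their values were seen, had log2 fold changes of -0.14 ± 0.077 for ACO1 and 0.034 ± 0.063 for IREB2 (SE, edgeR adjusted p = 0.189 and 0.721). These RNA levels do not measure the activity of the proteins.

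Of 23 tested rows of iron-sulphur cluster assembly, 3 rose, 2 fell and 18 did not pass, with a median of 0.024. Over all tested genes, 12.7% were called higher and 18.0% lower. NUBPL, an assembly factor of respiratory complex I, rose by 0.61 ± 0.15, LYRM4, a partner of the cysteine desulphurase, by 0.50 ± 0.099, and the carrier gene NFU1 by 0.36 ± 0.089 (log2, SE; edgeR adjusted p = 0.00961, 0.00342 and 0.0113). IBA57 and NUBP2, of mitochondrial and cytosolic assembly, fell by 0.39 ± 0.073 and 0.24 ± 0.071 (edgeR adjusted p = 0.00236 and 0.0242). The calls of NUBPL and NFU1 were lost without wild type replicate 1 (adjusted p = 0.0531 and 0.0577). That of NUBP2 was lost without wild type replicate 1 or 2 or knockout replicate 2 (adjusted p 0.0869 to 0.104), and with the replicate number as a block (0.0508). The median turned to -0.050 without wild type replicate 3 and to -0.046 without knockout replicate 2. Without knockout replicate 3, MMS19 and NDOR1 were also called lower (edgeR adjusted p = 0.0161 and 0.0171), 4 genes in all.

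**Figure D4:**
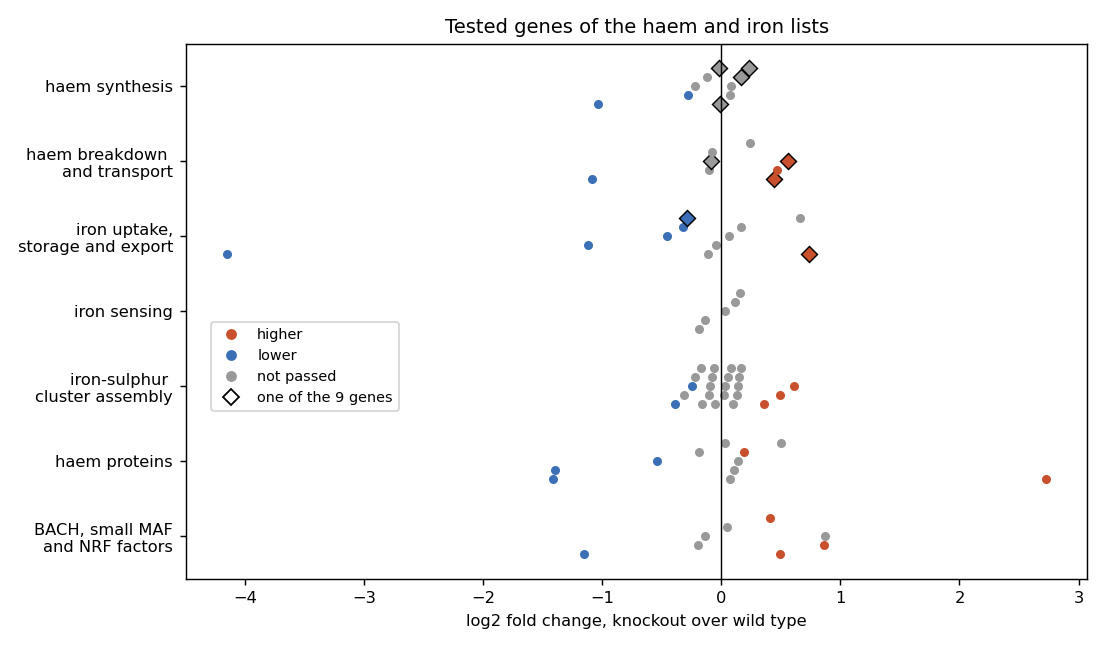
Log2 fold change of knockout over wild type (horizontal axis) for the reported genes of 7 lists (rows), coloured by call at an edgeR adjusted p under 0.05; diamonds are the 9 genes described here. SLC39A8 is the point at -4.16, with 9 to 10 counts per knockout library. CYGB is the point at 2.73, with 3 to 4 counts per wild type library. Each of these genes passed the filter on low counts only through the genotype where it is higher. Most genes lie near 0.

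Among 11 tested genes of haem proteins and their assembly, 2 rose, 3 fell and 6 did not pass (median 0.072), where 12.7% of all tested genes were called higher and 18.0% lower. With 1 library left out the median ran from 0.032 (without wild type replicate 1) to 0.11 (without knockout replicate 3), and it was 0.033 and 0.040 without knockout replicate 1 or 2. CYGB (cytoglobin) rose from 0.275 ± 0.0730 to 1.73 ± 0.538 CPM and CYB5B, a cytochrome b5 of the outer mitochondrial membrane, by 0.19 ± 0.064 on the log2 scale (edgeR adjusted p = 0.00123 and 0.0416). CYBB, the cytochrome subunit of the phagocyte oxidase, fell from 46.9 ± 6.81 to 18.0 ± 2.26 CPM, and PTGS2, a cyclooxygenase gene, from 3.35 ± 1.20 to 1.20 ± 0.160 CPM (edgeR adjusted p = 2.58e-05 and 0.0104). COX15, which makes haem A, fell by 0.54 ± 0.12 (edgeR adjusted p = 0.00539). CYB5B lost its call without any 1 library other than knockout replicate 1 (adjusted p 0.0626 to 0.133) and with the replicate number as a block (0.0786). It also lost it with no filter (edgeR adjusted p = 0.0603), and in 8 of 16 alternatives in all. PTGS2 lost its call without wild type replicate 2 (0.0581).

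Of the 8 tested genes in a list of BACH, small MAF and NRF factors, made up of factors on the elements that control HMOX1 in mammals and of their regulators, such as the ubiquitin ligase scaffold CUL3, 3 rose, 1 (BACH2, the targeted gene) fell and 4 did not pass (median 0.23). These are few genes, and among all tested genes 12.7% were called higher and 18.0% lower. BACH1, the repressor best known for HMOX1, had 4.94, 4.67 and 3.73 CPM in the wild type libraries and 5.43, 10.9 and 8.12 CPM in the knockout (0.86 ± 0.25, edgeR adjusted p = 0.0231). The activator gene NFE2L2 (NRF2) had 22.3, 21.0 and 19.1 CPM in the wild type libraries and 33.9, 24.5 and 29.8 CPM in the knockout (0.49 ± 0.13, edgeR adjusted p = 0.0153). NFE2L1 rose by 0.41 ± 0.14 (edgeR adjusted p = 0.0427), although its knockout replicate 1 (187 CPM) overlapped the wild type range. BACH1 lost its call without wild type replicate 1, 2 or 3 or knockout replicate 2 (adjusted p 0.0641 to 0.102), and NFE2L2 without wild type replicate 2 or 3 (0.0524 and 0.0633). NFE2L1 lost its call without any 1 library other than knockout replicate 1 (0.0799 to 0.153). It also lost it in both limma fits (limma adjusted p = 0.0768 and 0.0762), which called 2 genes of the list higher. In all, NFE2L1 lost its call in 9 of 16 alternatives. MAFF, a small MAF gene named after its values were seen, was called higher in 4 of 16 alternatives, and CUL3 lower without knockout replicate 1. The median of this list was 0.11 to 0.28 with 1 library left out.

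Over the 16 alternative settings, TFRC ran from 0.70 to 0.77 and HMOX1 from 0.52 to 0.64 in log2 fold change, and both were called higher in all 16. BLVRA ran from 0.40 to 0.47 and FTH1 from -0.32 to -0.22, each called in 14 of 16. HMOX2, FECH and UROD were called in none of the 16, with edgeR, DESeq2 and limma among them, and ALAS1 and CPOX only without knockout replicate 1. The lowest adjusted p over these settings was 0.417 for HMOX2, 0.662 for FECH and 0.530 for UROD.

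**Figure D5:**
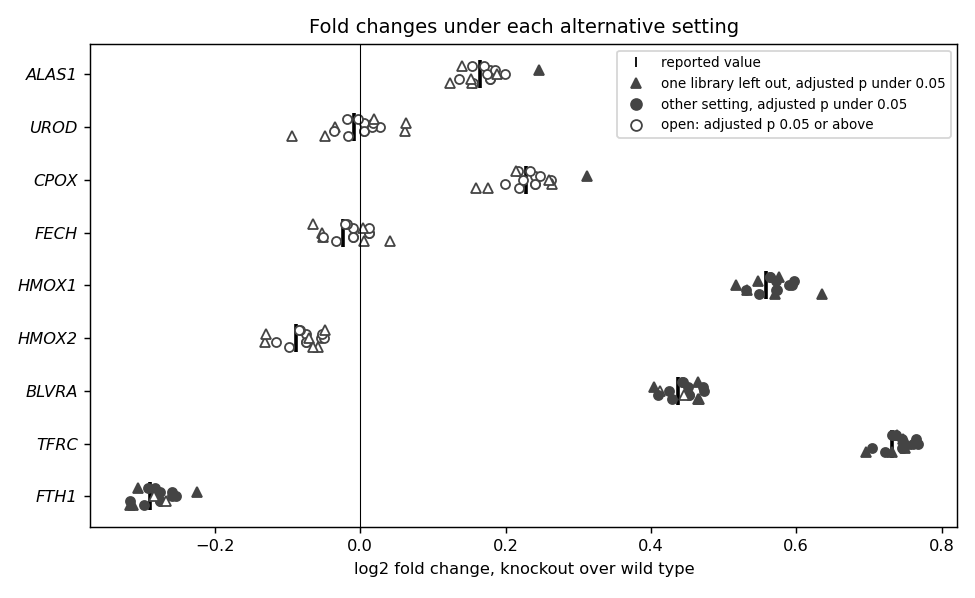
Log2 fold change of the 9 genes (horizontal axis) as reported (vertical tick) and under 16 alternative settings; triangles leave out 1 library and circles change the scaling, filter, test or block, and filled symbols have an adjusted p under 0.05. HMOX1 and TFRC are filled throughout, and FECH and UROD scatter around 0.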

How the data were processed

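RNA sequencing of 6 DT40 libraries was analysed. The authors deposited raw counts (whole numbers) for 17108 genes and a second table. Its deposited values were taken for RPKM, since dividing them by the counts leaves a gene factor and a library factor. The submitters' processing notes name the build galGal4 with TopHat2 2.1.0, Subread 1.5.0, bcl2fastq 1.8.4, limma and edgeR, without their roles. Annotation and strandedness are not given in the sources used here, so reads of overlapping genes cannot be told apart. A GRCg7b gene table, another build, placed genes on chromosomes; in it FTH1 overlaps BEST1 and ALAS1 overlaps 1 uncharacterised gene.

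Counts were tested in R 4.3.3 with edgeR 4.0.16 (filterByExpr, TMM, glmQLFit and glmQLFTest, two-sided, Benjamini-Hochberg over 9159 genes, threshold 0.05). CPM uses TMM-scaled totals; the SE is the log2 fold change over the square root of F. Totals were 8999010 to 20647281 counts, where 3 counts equal 0.147 to 0.339 CPM (counting error only). Alternatives were scaling, filters, DESeq2 1.42.0, limma 3.58.1 on log2(RPKM + 1) and log2(RPKM + 0.1), a replicate block, each library left out and, chosen after the data were seen, TMM without chromosome 3 genes. The fit was tested on simulated data.

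Members and lists were chosen with earlier results of these data known. Named are the 9 genes, BACH2, in each list up to 3 called genes of largest change and all calls in a direction with 5 or fewer, and the 5 genes most like HMOX1 among other tested genes with a proper symbol. No duplicate libraries were found. No sequences are shown. A gene of the lists is not reported here, and list counts leave it out.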

Additional observations from a re-analysis of the deposited data

How the results depend on the processing

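HMOX1 and TFRC kept their calls in all 16 alternatives. Leaving out 1 library at a time moved the number of genes called higher to 639 to 1483 (1163 with all) and that called lower to 1177 to 1953 (1647 with all), the members called higher to 2 to 5 and the members called lower to 0 to 1. It moved BLVRA to 0.40 to 0.47, FTH1 to -0.32 to -0.22, ALAS1 to 0.12 to 0.25, CPOX to 0.16 to 0.31, FECH to -0.065 to 0.041 and UROD to -0.094 to 0.062 in log2 fold change, and the list medians to -0.21 to -0.062 for haem synthesis, -0.15 to 0.10 for haem breakdown and transport, -0.019 to 0.051 for iron sensing and -0.050 to 0.043 for iron-sulphur cluster assembly. FECH changed sign, without passing, with library totals (0.012) and with limma on log2(RPKM + 1) and log2(RPKM + 0.1) (0.012 each), and without wild type replicate 1 (0.041), knockout replicate 1 (0.0043) or knockout replicate 3 (0.0057). UROD did so with DESeq2 size factors (0.0052), library totals (0.027), upper quartile scaling (0.0051), DESeq2 (0.0048), limma with a pseudocount of 1 or 0.1 (0.017 each), and without wild type replicate 2 (0.062), knockout replicate 1 (0.062) or knockout replicate 2 (0.019). The median of haem breakdown and transport was -0.0098 and -0.010 in the limma fits, that of iron uptake, storage and export -0.26 with no filter, and that of iron-sulphur cluster assembly 0.059 with library totals and 0.062 with limma on log2(RPKM + 0.1). Fits with 1 library left out had fewer libraries and the fit with no filter had more genes, and the cause of these shifts was not tested. Of 431 values for the 27 other named genes, 376 kept direction and call, 55 lost the call and 0 changed sign. Settings that keep all libraries ended the calls of HEPH, CP, NUBP2, NFE2L1 and CYB5B among them. The labels name no pairing of the libraries by replicate number. Correlations of same-numbered deviations were 0.0036, 0.093 and -0.021, and that of replicates 2 (0.093) was the highest of all pairs between the genotypes. With 3 libraries per genotype, these correlations cannot exclude a pairing. With the replicate block, 1009 genes were higher and 1567 lower, 3 and 1 of the 9 genes among them, with HMOX1 at 0.56, TFRC at 0.73, BLVRA at 0.44 and FTH1 at -0.29; wild type replicate 1 correlated better with knockout replicate 3 (0.025) than with its own number. BLVRA had 96 to 296 counts per library and the largest SE of the 9 genes (0.117). HMOX2, with 149 to 348 counts, had an SE of 0.113, and UROD, with 328 to 849 counts, had 0.107. The part of depth in these SEs was not tested.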
